A study of Mus musculus with 16 samples.

Results

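MyoD regions that held a peak in every library and stood higher in the ranking of both LncMyoD knockdown libraries than in that of both control libraries are described here. Peaks of the 4 MyoD lists on chromosomes 1 to 19 and X were merged wherever they overlapped or touched, which gave 24264 regions, and 9909 of them held a peak of all 4 libraries (kept regions). Within each library the kept regions were ranked by their highest fold enrichment and given a percentile from 0 to 100. A region was taken when its lower knockdown percentile exceeded its higher control percentile by at least 5 points, and this difference is called its margin. The rule found 877 such knockdown-higher regions, 8.85% of the kept regions. Pairs of values below are for replicates 1 and 2 of a group, controls before knockdown. The choice rests on the measured values of all 4 libraries, so the percentiles below describe the choice and are not a test of it.

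The study profiled H3K27ac and MyoD by chromatin immunoprecipitation with tagmentation of the bound DNA (ChIPmentation) in satellite cells, which are muscle stem cells, cultured from hindlimbs of C57BL/6 mice. Each antibody was used on 2 libraries whose genotype label is control and 2 labelled LncMyoD-KD. The text on the 48 h siRNA treatment names LncMyoD as the target for every sample, controls included, and the siRNA of the controls is otherwise unnamed. The labels state neither the animals' age nor the origin of the replicates, whose spread may therefore be technical. Every H3K27ac library had a peak within 1 kb of an end of the gene for 8 of 10 satellite cell markers, among them Pax7, Myod1 and Cdh15, and none had one at Calcr or Chrdl2. The same held for 2 of 12 endothelial, 4 of 12 fibro-adipogenic, 4 of 12 smooth muscle and pericyte, 3 of 12 immune and 3 of 12 Schwann and neural markers. No library had such a peak at Pecam1, Pdgfra, Myh11, Ptprc or Sox10, which define those cell types in the same order. What part other cells have in the MyoD lists was not tested.

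MyoD is a basic helix-loop-helix transcription factor that pairs with E proteins and binds the E-box, above all the palindrome CAGCTG, at promoters and enhancers of muscle genes. It marks activated satellite cells and drives their commitment to differentiation. LncMyoD is a long noncoding RNA transcribed from DNA upstream of Myod1, the gene of MyoD. H3K27ac is a histone acetylation found at active promoters and enhancers, and was read here as a second measure at the same places.

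Of the 849 knockdown-higher regions on chromosomes with RefSeq promoter sequences in the table used (build GRCm38.p6), 63 overlapped a promoter window, and 26 had the MyoD summits of all 4 libraries inside one. A window covers the 250 bases before a transcription start and the bases just after it. The stretches printed here show the DNA under those summits, taken from the part before the start within 60 bases of the median summit, with E-box letters in capitals. They are the region with the largest margin of all, 3 muscle genes, Pde1c and 1 region of a gene with several knockdown-higher regions, and were chosen after their values were seen.
Gm35992, a predicted long noncoding RNA gene (chr1:92379346-92379466, + strand): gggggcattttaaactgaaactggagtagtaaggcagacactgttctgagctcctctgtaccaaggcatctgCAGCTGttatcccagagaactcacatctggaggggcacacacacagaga
Klhl41, which encodes a stabiliser of sarcomere proteins (chr2:69669870-69669988, + strand): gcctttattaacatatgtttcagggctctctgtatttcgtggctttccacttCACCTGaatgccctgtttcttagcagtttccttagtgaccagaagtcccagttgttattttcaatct
Musk, which encodes the receptor kinase of the neuromuscular synapse (chr4:58285826-58285946, + strand): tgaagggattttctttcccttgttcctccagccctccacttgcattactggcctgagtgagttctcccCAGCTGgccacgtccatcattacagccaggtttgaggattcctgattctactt
Mrln, which encodes myoregulin, a peptide inhibitor of the sarcoplasmic calcium pump (chr10:70204538-70204658, + strand): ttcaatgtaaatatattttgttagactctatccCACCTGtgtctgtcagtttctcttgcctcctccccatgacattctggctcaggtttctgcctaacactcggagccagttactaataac
Pde1c, which encodes a calmodulin-dependent phosphodiesterase (chr6:56362811-56362913, - strand): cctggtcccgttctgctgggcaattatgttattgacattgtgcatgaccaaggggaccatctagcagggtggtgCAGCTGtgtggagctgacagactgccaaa
Cd82, which encodes a tetraspanin of the cell surface (chr2:93462534-93462654, - strand): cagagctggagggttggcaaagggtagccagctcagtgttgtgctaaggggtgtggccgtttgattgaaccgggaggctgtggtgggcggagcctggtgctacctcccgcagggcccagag

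Over whole windows, CAGCTG was present in 16 of the 26 promoter windows with all 4 summits, 1 window per region (61.5%, 95% Clopper-Pearson interval 40.6% to 79.8%). It was present in 73.03% of the 304 such windows at the other kept regions (67.7% to 77.9%) and in 16.4% of all 32619 windows. Being a palindrome, the motif reads the same on both strands. A second E-box, CAGGTG or its reverse CACCTG, which shares no match with the first, was in 10 of the 26 windows (38.5%), in 37.5% of the 304 and in 20.3% of all windows. The interval of the 26 windows holds the value of the 304, so no difference between the sets was detectable with 26 windows. In the printed stretches the nearest capitalised E-box lay a median of 16.0 bases from the summits at Gm35992 and 15.0 at Klhl41. This median was 30.5 bases at Musk, 25 at Mrln and 31.5 at Pde1c. In the stretch of Cd82 the letters searched for did not occur, which says nothing of binding outside it.

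The same rule was applied to the other ways of setting 2 libraries above the other 2. Both controls stood above both knockdowns at 820 regions (8.28%). Control 1 with knockdown 1 stood above the others at 1027 regions (10.4%), and control 2 with knockdown 2 at 1049 (10.6%). Control 1 with knockdown 2 gave 816 regions (8.23%), and control 2 with knockdown 1 gave 748 (7.55%). With percentiles over the kept regions, the count of knockdown-higher regions thus lay within the range of the 4 mixed pairs. It lay below both pairs that share a replicate number. An exact permutation test on 2 libraries against 2 cannot give a p below 0.333, so no p is attached to any region.

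**Figure D1:**
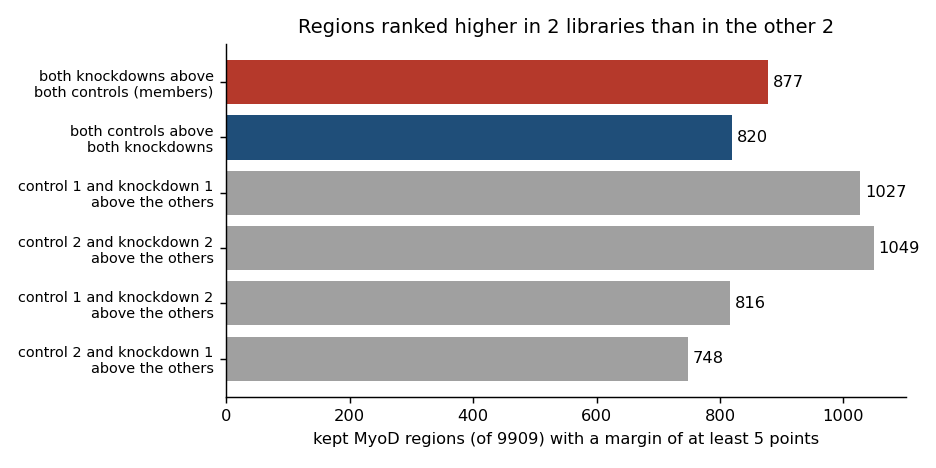
Bars give the number of kept MyoD regions (x axis, of 9909) at which the 2 libraries named on the left stood at least 5 percentile points above the other 2. The 877 knockdown-higher regions sit between the lowest mixed pair (748) and the highest (1049).

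Percentiles here are relative places among the same 9909 regions in each library, so a higher percentile is a higher place and not a measured gain of binding. When percentiles were taken over the whole peak list of each library, whose lengths run from 13069 to 17724 peaks, 365 regions were knockdown-higher and 1388 control-higher, against 877 and 820. The mixed pairs then gave 464 and 605 regions with knockdown 2 on the higher side, and 865 and 1202 with it on the lower side. Of the 2 unmixed counts, 365 lay below all of these and 1388 above all of them. Knockdown 2 has the shortest list. Fold enrichments also come in steps: the largest group of tied kept regions spanned 3.42 to 4.08 points in 3 libraries and 5.98 points in knockdown 2, more than the margin of 5. The step touches regions near the threshold. The 5 regions just inside it all had a margin of 5.02 and were assigned to Irf2bp2, Vma21, Endov, Abraxas2 and Wasf2. The 5 just outside had margins of 4.92 to 4.99 and were assigned to Niban1, Cd9, Nes, Ccng2 and Mast2.

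Regions chosen on 1 control and 1 knockdown library can be read in the pair that was not used. Of 3581 regions at which knockdown 1 stood at least 5 points above control 1, 52.6% had knockdown 2 above control 2 (interval 50.99% to 54.3%), against 50.2% of all kept regions. Chosen on the second pair and read in the first, the share was 51.5% of 3623 (49.9% to 53.2%). With the numbers crossed the shares were 47.9% of 3597 (knockdown 2 over control 1) and 47.98% of 3633 (knockdown 1 over control 2), both under the 51.1% and 49.8% of all kept regions. A knockdown library standing above a control in 1 pair was thus followed by the same direction in the unused pair in close to the background share, a little above it for like numbers and a little below it for crossed numbers. Regions with control 1 over control 2 had knockdown 1 over knockdown 2 in 54.3% of 3553 (52.6% to 55.9%). These intervals cover counting error over regions only, and regions of 1 library share its depth and noise.

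**Figure D2:**
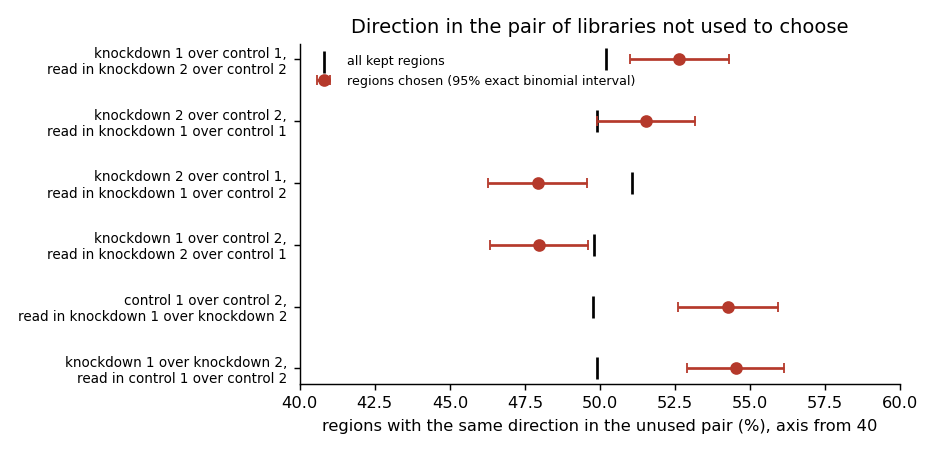
Points give the percentage of chosen regions with the same direction in the unused pair (x axis from 40 to 60, 95% exact binomial intervals), and ticks the percentage over all kept regions. The 4 upper rows, choosing a knockdown over a control, lie on both sides of their ticks (47.9% to 52.6%), and the 2 lowest rows, choosing library 1 over library 2 of a group, lie at 54.3% and 54.5%.

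The knockdown-higher regions came from the lower and middle part of the ranking, as did those of the mixed pairs: the median of the mean percentile was 39.3, beside 39.9 to 43.0 in the 4 mixed pairs and 48.3 in the other kept regions. Their median percentile was 25.9 in control 1 and 24.8 in control 2, and 54.3 in knockdown 1 and 56.1 in knockdown 2. The corresponding median fold enrichments were 6.75 and 6.62, and 9.21 and 8.23. The margin had a median of 11.1 and a maximum of 47.2 points; 496 regions had at least 10 points, 140 at least 20 and 36 at least 30. Only 3 of the 877 had a mean percentile of at least 90 over the 4 libraries, a level reached by 828 kept regions. A margin needs room above the controls, which the highest ranks do not leave. Merged regions were 465 bp wide at the median, beside 470 to 501 bp in the mixed pairs and 511 bp for the other kept regions. A single peak in each library was found at 98.1% of them, beside 97.1% of the other kept regions.

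The largest margin belonged to the region at chromosome 1, 92379202 to 92379776 (mm10), which covers the start of Gm35992 printed above and lies 59.7 kb from the nearest gene body of the protein-coding table. Fold enrichments there were 4.86 and 6.62 for the controls and 11.8 and 10.01 for the knockdown, at percentiles 5.21 and 24.8 against 74.3 and 72.1. Both knockdown values lay far above both controls, as a large margin requires, and the controls lay farther apart than the knockdown values.

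Inside Rims1, a scaffold gene of the presynaptic active zone, the region at chromosome 1, 22594735 to 22595242, had percentiles of 32.6 and 29.5 for the controls and 78.1 and 85.3 for the knockdown. Exoc3l, related to the exocyst, held a region at chromosome 8, 105295096 to 105295724, with 7.95 and 14.4 against 59.6 and 62.1. The region 2.70 kb from Aqp11, an aquaporin gene (chromosome 7, 97740945 to 97741402), had 3.19 and 24.8 against 69.7 and 75.97. At these 3 regions the room left above the lower knockdown percentile was smaller than the margin. The knockdown libraries thus had to lie closer to each other than to either control. Their closeness in these 3 regions therefore says nothing of replicate agreement. Of the 20 regions with the largest margins, 14 lay inside a gene, 2 within 50 kb of one and 4 farther away.

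Signalling genes were among those 20. Tgfbr1, the type I receptor of TGF-β, held an intragenic region at chromosome 4, 47399793 to 47400148, where the folds were 5.65 and 5.62 for the controls and 8.84 and 7.84 for the knockdown. Its percentiles were 13.9 and 11.4 against 50.6 and 51.5, so the replicates of each group nearly coincided there. Over all kept regions the percentiles of the knockdown libraries correlated at 0.71 and those of the controls at 0.78. Pairs of a control and a knockdown library correlated at 0.73 to 0.77. Inside Stk39, a kinase gene that controls cation-chloride transporters, the percentiles were 13.7 and 0.69 against 56.02 and 70.6. Vav2, a guanine nucleotide exchange factor gene, had 24.1 and 5.52 against 57.9 and 60.2. Lgr6, a receptor for R-spondins, had 0.72 and 16.6 against 59.4 and 51.5. Dapp1 and Ywhag, which encode signalling adaptors, had margins of 37.7 and 34.1 points. The nuclear receptor gene Rora had a margin of 37.3, and its region lay in H3K27ac above percentile 95 in all 4 libraries.

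Other genes among the 20 have metabolic or structural roles. Adk, adenosine kinase, had percentiles of 28.3 and 20.5 for the controls and 69.7 and 73.3 for the knockdown. Dst, which encodes the cytoskeletal linker dystonin, had 2.27 and 2.43 against 38.5 and 51.5. Ust, a sulfotransferase of glycosaminoglycans, had 6.26 and 3.38 against 72.1 and 46.5, so the knockdown libraries differed widely there. Sppl3, Pigu and Serpinf1, which encode an intramembrane protease, a subunit of the enzyme that attaches lipid anchors and a secreted serpin, had margins of 40.1, 33.6 and 34.9 points. Over the 20 regions no control percentile was above 33.7 and no knockdown percentile below 38.5.

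**Figure D3:**
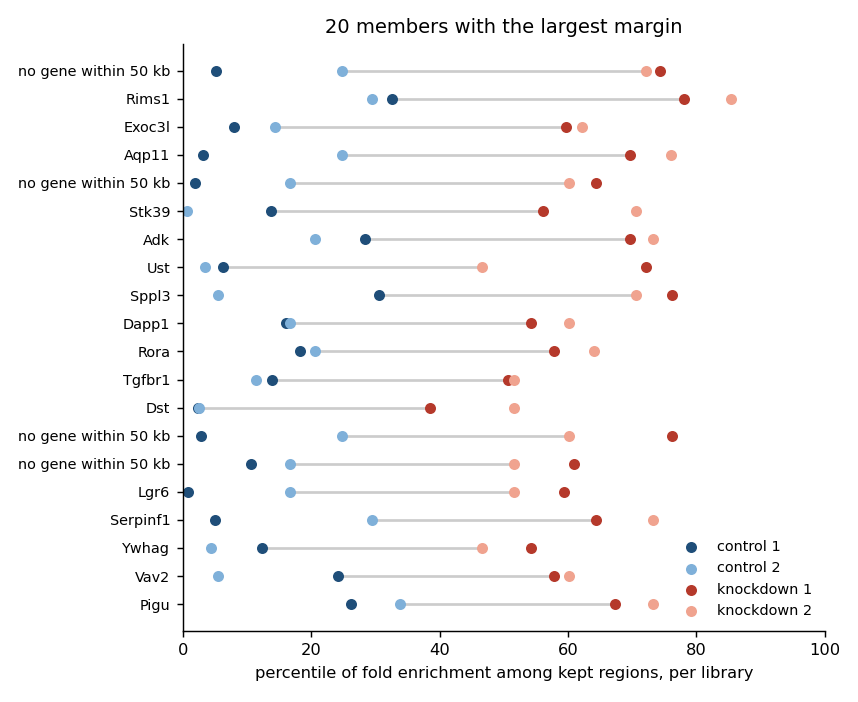
Each row is 1 of the 20 knockdown-higher regions with the largest margins, named by its gene, and each point the percentile (x axis) of a library. Grey lines span the margin, and control percentiles lie between 0.69 and 33.7 and knockdown percentiles between 38.5 and 85.3.

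The 877 regions were assigned to 691 genes, with 133 regions more than 50 kb from any gene body. Most genes (646) held 1 such region, 39 held 2, 4 held 3 and 2 held 4. The 6 genes with 3 or more are given with all their kept regions, since a gene with many kept regions has more chances to hold one. Itpr1, the inositol trisphosphate receptor that releases calcium from the endoplasmic reticulum, held 4 among 7 kept regions. A row of 3 of them lay side by side beyond the gene, from 108569600 to 108571179 on chromosome 6, and the first and second of these were knockdown-higher. The first had percentiles of 6.26 and 16.6 for the controls and 46.9 and 46.5 for the knockdown. The last had 40.6 and 16.6 against 38.5 and 28.7, where the groups overlapped.

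Nav2, a cytoskeletal regulator gene named for its part in neurons, held 4 among 7 kept regions, all between 49364498 and 49379007 on chromosome 7. At 49371359 to 49372338 the percentiles were 62.7 and 63.4 for the controls and 79.8 and 89.2 for the knockdown. The kept region just before this group, starting at 49359089, had 58.1 and 72.7 against 57.9 and 63.97 and so did not share the pattern. Thsd4, a gene of microfibril-associated matrix protein, held 3 among 5 kept regions. The region at chromosome 9, 60402583 to 60403053, had 0.86 and 0.81 against 76.1 and 31.7, so the controls coincided and the knockdown libraries did not. A further Thsd4 region, from 60311618 to 60312151, was control-higher, with 51.7 and 60.6 against 30.1 and 28.7.

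Cd82 held 3 among 10 kept regions, with the region at its start (chromosome 2, 93462410 to 93462778) at percentiles 3.19 and 9.55 for the controls and 25.6 and 35.4 for the knockdown. The region beside it, from 93461021, stood at 88.4 and 98.9 against 97.8 and 98.3 and was in neither set. Arhgap24, a GTPase-activating gene that restrains Rac, held 3 among 11. Its region from 102481162 had 20.4 and 14.7 against 46.9 and 51.5. Zmiz1, a transcriptional coactivator gene, held 3 among 7, and its region from 25673561 had 49.9 and 50.5 against 73.1 and 74.5. In both genes some of the other kept regions had lower mean percentiles in the knockdown. Among all kept regions of these 6 genes 1 was control-higher, the one in Thsd4.

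**Figure D4:**
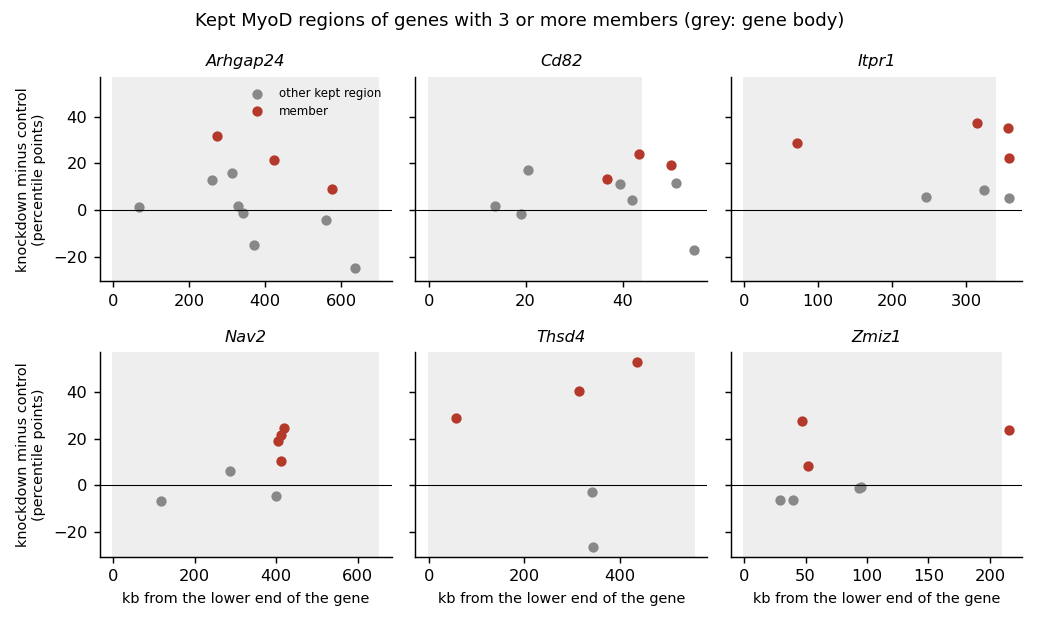
Each point is a kept MyoD region of a gene with 3 or more knockdown-higher regions, by distance from the lower end of the gene (x axis, kb) and by mean knockdown minus mean control percentile (y axis). Red points are knockdown-higher regions, such as the 4 of Nav2 that lie together, and grey points the other kept regions, some of which lie below 0.

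Muscle genes were read through 14 functional lists and 6 lists of cell type markers, which together hold 399 genes. Of 559 kept regions at these genes, 40 were knockdown-higher (7.16%, beside 8.85% of all kept regions) and 38 control-higher. As the rule used these values, the shares by list are descriptions. Myogenic regulators had 4 of 65 kept regions, with 6 control-higher, and the median knockdown minus control difference of the list was −0.13 points, beside 0.04 over all kept regions. The 4 lay at Mef2d, Eya2, Nfix and Nfib. Mef2d encodes a partner of the MyoD family on muscle promoters, and its region 3.23 kb from the gene had percentiles of 10.6 and 12.9 against 30.1 and 28.7. Eya2 encodes a coactivator of SIX-family homeobox factors, and its intragenic region had 10.9 and 33.7 against 46.9 and 56.1. Nfix, known for the switch from embryonic to fetal myogenesis, had 34.6 and 36.0 against 64.4 and 44.1.

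Sarcomere genes had 5 of 60 regions, with 7 control-higher and a median difference of −0.13 points. Tnnt1, slow skeletal troponin T, held a region 1.18 kb inside its end with percentiles of 20.4 and 20.5 for the controls and 43.1 and 73.3 for the knockdown. The region at the start of Klhl41 (chromosome 2, 69669776 to 69670119) had fold enrichments of 6.28 and 6.95 against 9.21 and 7.05 and percentiles of 20.4 and 29.5 against 54.3 and 41.04. Control 2 and knockdown 2 thus had nearly the same fold at Klhl41 and differed in rank. Over all kept regions the median fold was 8.61 in control 2 and 7.84 in knockdown 2, so an equal fold takes a higher place in knockdown 2. Myl4, an embryonic myosin light chain gene, had 51.7 and 54.2 against 69.7 and 63.97. The region of Myl1, the fast skeletal light chain gene, stood high in every library, at 83.3 and 76.6 against 89.8 and 90.1.

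Fusion and neuromuscular genes had 6 of 52 regions and 1 control-higher region, with a median difference of 0.60 points. Cdh15, the satellite cell cadherin, held 2 of its 4 kept regions in the set. At chromosome 8, 122851393 to 122852184, the percentiles were 34.9 and 63.4 against 79.8 and 82.3. At its start the percentiles were 73.5 and 73.7 against 86.1 and 80.4, and its strongest region stood at or above 98.8 in all 4 libraries. Dysf, which encodes the membrane repair protein dysferlin, had 36.7 and 29.5 against 67.3 and 64.0. Musk, at its promoter, had 58.1 and 50.5 against 64.4 and 67.5, and Dmd (dystrophin) and Sntb1 (a syntrophin) had margins of 16.2 and 8.20 points. Among excitation-contraction coupling genes 1 of 33 regions qualified, at Jph2 (junctophilin), with 82.1 and 74.8 against 89.8 and 92.8. Mrln, which is on none of the lists, had 16.1 and 6.83 against 21.6 and 22.4.

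Matrix and TGF-β genes had 6 of 55 regions, with 1 control-higher and a median difference of 2.9 points. Among them, besides Tgfbr1, were regions of Col4a2, Loxl2, Tnc and Tgfb2. Col4a2, a basement membrane collagen gene, had percentiles of 6.26 and 16.6 for the controls and 78.1 and 35.4 for the knockdown, a wide split between the knockdown libraries. Loxl2, a collagen crosslinking enzyme gene, had 22.1 and 52.5 against 65.9 and 67.5. Tnc, the gene of the matrix glycoprotein tenascin C, had a region 0.18 kb from the gene at 16.1 and 33.7 against 46.9 and 67.5. The region near Tgfb2 stood high in every library, at 69.1 and 72.7 against 79.8 and 94.7.

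Genes of the IMP-IGF axis had 2 of 23 regions, with 0 control-higher, at Akt2 (16.1 and 3.38 against 46.9 and 60.2) and near Pik3r1, the regulatory subunit of PI3-kinase (6.26 and 9.55 against 57.9 and 35.4). Notch and satellite cell genes had 2 of 56, at Notch2 (16.1 and 1.68 against 21.6 and 22.4) and Cxcr4 (24.1 and 20.5 against 30.1 and 46.5). Both had margins just past the threshold. Repressors had 2 of 33, among them a region 13.4 kb from Msc, the musculin gene, at 20.4 and 24.8 against 61.0 and 51.5. Hippo pathway genes had 2 of 24 (Lats2 and Amotl1), actomyosin and adhesion genes 3 of 67 (Pdlim7, Itgb1 and Tns1), muscle metabolism genes 2 of 17 (Ppargc1a and Ckb) and immediate early genes 1 of 11. The last lay 42.2 kb from Fos, with 3.99 and 12.9 against 43.1 and 41.04. Lats2, a kinase gene that restrains YAP, had a region at its promoter with 3.99 and 6.83 against 12.9 and 35.4. Pdlim7, a gene of an actin-bound adaptor, had 6.26 and 29.5 against 54.3 and 51.5. Ppargc1a, which encodes the coactivator of mitochondrial genes PGC-1α, had 10.6 and 12.9 against 38.5 and 28.7. Cell cycle genes had 0 of 21 and housekeeping genes 1 of 5, near Eef1a1.

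Markers of other cell types had few kept regions to count, and the shares are set beside the 8.85% of all kept regions. Schwann and neural markers had 2 of 13 (15.4%, at Ncam1, which muscle cells also express, and Pmp22), endothelial markers 1 of 9 (11.1%, at Erg), and fibro-adipogenic, smooth muscle and pericyte, and immune markers 0 of 5, 0 of 11 and 0 of 4.

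H3K27ac was not used in the choice. Of the 877 regions, 631 overlapped an H3K27ac region with a peak of all 4 H3K27ac libraries (71.9%, 68.8% to 74.9%), beside 76.8% of the other kept MyoD regions (75.9% to 77.7%), and 116 overlapped no H3K27ac region (13.2% beside 10.9%). The share was 78.3% at control-higher regions and ran from 67.9% (control 2 with knockdown 2) to 78.2% (control 1 with knockdown 1) in the mixed pairs. By library, 79.7% and 81.9% of the 877 had a peak in control libraries 1 and 2, and 84.7% and 74.2% in knockdown libraries 1 and 2. Over all kept regions these shares were 83.8% and 85.3% for the controls and 87.4% and 77.7% for the knockdown. In both sets the knockdown values lay on both sides of the control values.

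Percentiles of H3K27ac were formed in the same way over the 26113 H3K27ac regions of all 4 libraries. At the 631 knockdown-higher regions their median was 62.1 and 68.0 for the controls and 64.04 and 65.2 for the knockdown. At the other kept MyoD regions it was 70.7 and 74.6 for the controls and 70.1 and 72.2 for the knockdown. In the mixed pairs it ran from 62.4 to 67.9 and from 64.0 to 72.9 for the controls. For the knockdown it ran there from 61.9 to 68.1 and from 62.4 to 71.0. At the 631 regions the median difference, mean knockdown minus mean control, was −0.08 points, with quartiles of −5.27 and 4.43. It was −0.46 points at the other kept regions and −0.87 at control-higher regions. The larger within-group SD of the H3K27ac medians was 4.19 points (n = 2), larger than these differences. At 49.3% of the 631 regions the difference was above 0, beside 45.4% of the other kept regions. In the mixed pairs this share ran from 44.2% to 52.4%, and the median difference from −0.93 to 0.23 points.

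Both knockdown libraries stood above both controls in H3K27ac at 96 of the 631 regions (15.2%), beside 14.8% over all kept MyoD regions, and both controls above both knockdowns at 106 (16.8%), beside 19.1%. With a margin of at least 5 points the counts were 39 (6.18%), beside 4.95%, and 40 (6.34%), beside 7.04%. Over all 26113 H3K27ac regions the first of these shares was 7.01%. The shares at the 631 regions lay close to those of all kept MyoD regions. In the mixed pairs the share without a margin ran from 13.9% to 18.1% with both knockdowns higher. With both controls higher it ran from 16.4% to 23.7%. At Col4a2 the H3K27ac percentiles were 56.9 and 59.8 for the controls and 75.03 and 85.9 for the knockdown. Inside Man1c1, which encodes a mannosidase, they were 7.65 and 3.26 against 45.5 and 38.9, the largest H3K27ac margin in the set. Near Msc they were 18.8 and 10.6 against 27.5 and 54.1. In the other direction, the region 5.30 kb from Tgfb2, a TGF-β ligand gene, had H3K27ac at 72.7 and 69.8 against 48.7 and 50.2, and Dysf had 42.1 and 44.5 against 30.8 and 27.1. Of the 20 regions with the largest MyoD margins, 9 lay in H3K27ac of all 4 libraries, 4 of them with both knockdown libraries higher and 2 with both controls higher.

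**Figure D5:**
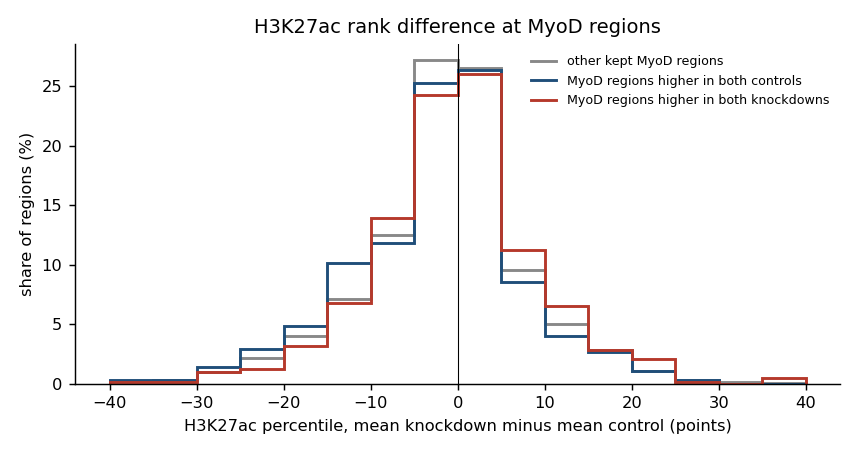
Steps give the share of MyoD regions (y axis) by H3K27ac difference, mean knockdown minus mean control percentile in bins of 5 points (x axis), for knockdown-higher, control-higher and other kept regions. Values beyond the axis are in the end bins, and the 3 outlines overlap, with medians of −0.08, −0.87 and −0.46 points.

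In position the knockdown-higher regions were close to the other kept regions. Inside gene bodies lay 59.0% of them, beside 59.8%, and within 50 kb of a gene 25.9%, beside 25.6%. Within 1 kb of a gene end lay 104 (11.9%, 9.79% to 14.2%), beside 13.4% of the other kept regions (12.7% to 14.2%) and 16.1% of control-higher regions. The mean summits of the 2 groups were within 50 bp of each other at 74.8% of the regions, beside 76.2%. A mean can hide opposite offsets of replicates, and whether all libraries read the same site was not tested. Another kept region lay within 10 kb of 213 of the knockdown-higher regions (24.3%), beside 30.9% of the other kept regions. That neighbour was itself knockdown-higher in 20 cases (9.39%) and control-higher in 21 (9.86%). For the neighbours of the other kept regions the shares were 6.92% and 8.17%.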

How the data were processed

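Peak lists of 8 ChIP libraries were used, and the 8 input samples were not analysed here. The submitters' processing notes name the build mm10 and the tools MACS2 2.1.1, bedtools 2.26.0, SAMtools 1.3, Bowtie2 2.3.2 and Picard 2.9.2, without a role, an option or the matching of inputs to libraries. One list per library was deposited. The fold enrichment of each peak, a linear ratio, is the authors' value as deposited. A −log10 p-value, a −log10 q-value and a score stand beside it in the deposited lists, and the score was not used. Depth is unknown, since the lists hold no read counts, so intervals cover counting error over regions only.

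Merging (gap 0 bp, chromosomes 1 to 19 and X), percentiles (tied values share their mean rank), overlaps (1 base) and Clopper-Pearson 95% intervals were computed with Python 3.11.15, pandas 2.3.3 and scipy 1.17.1. The code of the rule was checked on simulated peaks without ties, which does not show how the rule behaves at the noise of these data. No fit across regions or library test was made. Regions took the name of the gene body overlapped (the one with the nearest end), otherwise of the nearest within 50 kb, out of 21628 genes (protein-coding, or on a list) in RefSeq's annotation of GRCm38.p6. The gene table has no strand, so the planned distance to transcription starts was replaced by gene ends. Regions, lists and rules were chosen with earlier results of these data known. Named were the 20 largest margins, 5 regions on each side of the threshold, up to 30 list genes by margin and genes with at least 3 regions. Pde1c, Mrln, Gm35992, Man1c1, and the list genes Tgfb2, Nfib, Ckb, Myl1, Musk, Lats2, Cxcr4 and Notch2 were named after their values were seen. One list gene that the rule names is not reported here.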

Additional observations from a re-analysis of the deposited data

How the results depend on the processing

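The count of 877 knockdown-higher regions was 496 with a margin of at least 10 points, 365 with percentiles over whole peak lists, and 2118 to 2647 with 1 MyoD library left out, where fewer libraries have to agree. Leaving out control 1 gave 2185, against 1970 control-higher, and leaving out control 2 gave 2118, against 1988. Leaving out knockdown 1 gave 2378, against 2376, and leaving out knockdown 2 gave 2647, against 2647. With the replicate block, an alternative chosen after seeing the data that compares knockdown with control within each replicate number, it was 1483, against 1359 control-higher. With crossed numbers the knockdown-higher count was 1341. Over 9909 regions the difference of the controls and that of the knockdown libraries correlated at 0.11. Knockdown minus control differences of the 2 pairs correlated at 0.03 for like numbers and −0.07 for crossed numbers. Whether the number pairs samples was not tested. Stricter peaks (−log10 q of at least 5), merging within 1000 bp, ranking by −log10 p, a margin of 2 points and single-peak regions gave 728 to 1245. The share in H3K27ac of all 4 libraries was 65.7% with stricter peaks and 67.3% with at least 50% of the region covered. The share near a gene end was 18.2% within 2500 bp. The same direction in the unused pair, chosen on knockdown 2 over control 1, was 45.9% when ranked by −log10 p. The median H3K27ac difference ran from −1.01 to 0.62 points over 14 settings and was above 0 in 5, without H3K27ac control 1 and without H3K27ac knockdown 1 giving the ends.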

Other observations

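The knockdown-higher regions with the highest mean percentile over the 4 libraries lay inside Ankrd13a (chromosome 5, 114795986 to 114796866), Atp6v0a2, a subunit gene of the vacuolar proton pump, and Gnaq, a G protein gene. Ankrd13a stood at percentiles 91.5 and 91.7 for the controls and 98.1 and 97.03 for the knockdown. Its fold enrichment was 16.6 in both controls and 24.7 and 19.99 for the knockdown. Gnaq stood at 88.1 and 87.8 against 93.6 and 94.7. These genes were named after their values were seen.

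By chromosome the knockdown-higher share of kept regions ran from 7.28% on chromosome 3 (31 of 426) to 12.05% on chromosome 14 (40 of 332), beside 8.85% over all, and no test of this spread was made.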
